A study of Mus musculus with 30 samples.

Results

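The genes described here are 37 interferon-stimulated genes of the mouse, followed in brain, heart, kidney and vessel during an angiotensin II infusion. They were chosen by symbol from a list of genes that interferons are known to induce, and each was read from 1 probe set, the one with the highest mean over the arrays. Of the 37 genes, 35 had a probe set annotated to them alone, out of 18193 genes so represented on the array. Ifi44 had none and is not analysed further. Isg15, the ubiquitin-like modifier, had only a probe set annotated jointly with Gm9706 and is given no value.

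The arrays came from male C57BL/6 mice aged 8 to 10 weeks that received angiotensin II, a peptide hormone that raises blood pressure, at 1500 ng/kg/min from an osmotic pump. Tissue was taken after 1, 3 and 7 days, and day 0 groups were not given the hormone. For each of days 0, 1, 3 and 7 there were 3 heart arrays, 2 kidney arrays and 1 vessel array, and for days 0, 3 and 7 there were 2 brain arrays, which makes 30 in all. The labels call replicates of a group biological. They do not state if organs of 1 mouse were used together, or if a pump was placed in the day 0 mice. The RNA on an array was that of a whole tissue, so fewer cells of a type and less RNA per cell cannot be told apart. Values are the deposited linear intensities, and differences are on the scale of log2(intensity + 16), where 1 is a doubling. That scale understates the change of dim genes.

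Type I interferons signal through a receptor that activates a transcription factor complex with STAT2 and IRF9 among its subunits, which binds interferon-stimulated response elements in the promoters of its target genes. The targets include sensors of viral nucleic acid, the transcription factors themselves, enzymes that attach or remove ISG15, and effectors that block viral entry, translation or replication. Interferon gamma acts through a receptor of its own on partly overlapping targets, with guanylate binding proteins and the machinery of antigen processing among them. By these roles the list held 3 sensors, 3 transcription factors, 3 genes of the ISG15 system, 15 antiviral effectors, 2 guanylate binding proteins, 3 genes of antigen processing and 8 other interferon-induced genes.

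Promoter sequences of the members show how far these genes share known response elements. RefSeq entries on GRCm38.p6, from 250 bases before to 50 bases after the annotated start, were at hand for 28 of the 37 genes. Those of Ifi27l2a, Zbp1, Usp18, Mx1, Ly6e, Mx2, Parp14, Dhx58 and Rtp4 were not used here. The core of the interferon-stimulated response element was searched as GAAA, any 2 bases and GAAA again, on both strands, and was found in 13 of the 28 promoters (46.4%) against 1079 of 27025 promoters of all genes (3.99%). The 13 genes were Bst2, Eif2ak2, Gbp2, Gbp3, Ifih1, Ifit1, Ifit3, Ifitm3, Isg15, Oas1a, Rsad2, Stat2 and Trim30a. The gamma-activated sequence, searched as TTCNNNGAA, which reads the same on both strands, was in 7 of the 28 (25.0%) against 9.55% of all. A match describes these letters only. Most of the promoters printed below hold the core, which is more than its share among the 28. Cmpk2, which is called in heart below, held no match to either sequence and is not printed.

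The following 7 promoters are given 5′ to 3′ on the strand of the gene, with the response element core in capitals. Ifit1 and Ifit3 both lie in the Ifit cluster of chromosome 19, and each held 2 matches. Their windows are chr19:34640639-34640938 and chr19:34583279-34583578, both on the plus strand.
Ifit1: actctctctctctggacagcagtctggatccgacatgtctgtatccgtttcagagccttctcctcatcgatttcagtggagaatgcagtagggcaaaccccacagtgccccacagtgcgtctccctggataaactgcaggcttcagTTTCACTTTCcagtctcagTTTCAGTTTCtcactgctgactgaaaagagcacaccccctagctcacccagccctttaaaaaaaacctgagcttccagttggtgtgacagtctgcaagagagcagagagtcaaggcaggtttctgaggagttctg
Ifit3: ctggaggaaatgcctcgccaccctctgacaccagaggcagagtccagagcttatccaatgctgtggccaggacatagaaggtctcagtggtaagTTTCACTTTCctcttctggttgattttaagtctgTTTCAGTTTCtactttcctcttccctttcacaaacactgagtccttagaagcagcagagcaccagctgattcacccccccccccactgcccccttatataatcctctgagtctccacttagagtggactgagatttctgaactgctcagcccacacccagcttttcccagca
Oas1a, on the minus strand of chr5:120907476-120907775, and Bst2, on the minus strand of chr8:71537423-71537722, each held 2 matches that overlap and so appear as 1 run of capitals.
Oas1a: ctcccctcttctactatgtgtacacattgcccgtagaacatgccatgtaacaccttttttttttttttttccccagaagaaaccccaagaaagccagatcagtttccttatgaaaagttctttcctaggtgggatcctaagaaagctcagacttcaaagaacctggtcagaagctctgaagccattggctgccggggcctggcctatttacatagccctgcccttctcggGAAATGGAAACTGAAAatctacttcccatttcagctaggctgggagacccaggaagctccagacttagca
Bst2: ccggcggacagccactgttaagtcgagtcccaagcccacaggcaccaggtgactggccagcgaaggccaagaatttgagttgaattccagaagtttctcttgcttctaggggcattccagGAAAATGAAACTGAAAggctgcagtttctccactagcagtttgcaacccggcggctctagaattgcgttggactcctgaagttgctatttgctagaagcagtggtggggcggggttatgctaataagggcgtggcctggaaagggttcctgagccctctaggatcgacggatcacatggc
Gbp2, on the plus strand of chr3:142620413-142620712, and Rsad2, on the minus strand of chr12:26456403-26456702, held 1 match each, and Oasl2, on the plus strand of chr5:114896684-114896983, held none.
Gbp2: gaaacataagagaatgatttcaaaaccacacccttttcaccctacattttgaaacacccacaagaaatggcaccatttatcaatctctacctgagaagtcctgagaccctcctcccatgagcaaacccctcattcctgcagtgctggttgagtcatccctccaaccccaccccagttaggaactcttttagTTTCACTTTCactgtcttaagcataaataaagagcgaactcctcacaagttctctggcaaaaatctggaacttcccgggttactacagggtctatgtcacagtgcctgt
Rsad2: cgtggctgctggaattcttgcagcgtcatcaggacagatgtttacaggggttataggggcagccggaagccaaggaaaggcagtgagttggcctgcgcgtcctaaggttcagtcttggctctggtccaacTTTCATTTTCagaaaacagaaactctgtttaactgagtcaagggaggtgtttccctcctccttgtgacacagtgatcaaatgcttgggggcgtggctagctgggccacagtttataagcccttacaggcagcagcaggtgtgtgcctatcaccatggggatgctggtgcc
Oasl2: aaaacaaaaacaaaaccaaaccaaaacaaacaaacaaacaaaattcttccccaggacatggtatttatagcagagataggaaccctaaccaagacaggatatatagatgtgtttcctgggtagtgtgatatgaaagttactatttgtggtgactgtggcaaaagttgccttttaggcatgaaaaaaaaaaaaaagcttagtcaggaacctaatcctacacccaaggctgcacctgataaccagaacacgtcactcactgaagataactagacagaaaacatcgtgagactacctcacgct

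Array medians lay between 35.2 and 37.8, with single probe sets reaching 22424. Mx1 and Mx2, of a family of antiviral GTPases, are both annotated in RefSeq as transcribed pseudogenes. Mx1 lay between 9.71 and 23.1 on the 30 arrays and was too dim to test in any tissue, and Usp18 was too dim in brain. This left 34 members tested in heart, kidney and vessel and 33 in brain. The first replicate of day 0 was high for these genes in heart and kidney and less so in brain, so changes are given with and without it. It was singled out by these same genes, so leaving it out lowers the day 0 mean of most members in advance. Markers matched the labelled tissues, summing to 68694 or more in heart for heart muscle, to 15143 or more in kidney for kidney, to 27589 or more in brain for brain and to 25775 or more in vessel for smooth muscle, each above every array of the other tissues. Some arrays also carried transcripts of another tissue. In vessel the median was 20519 for the adipocyte marker Ucp1 and 3063 for the heart marker Myh6, beside 14318 for the smooth muscle marker Acta2. Brain day 0 replicate 1 gave 4362 for the kidney transcript Kap and brain day 7 replicate 2 gave 2435, against 73 on brain day 0 replicate 2. On heart day 0 replicate 1 Kap was 759 against 90.9 and 113 on the other day 0 heart arrays, a larger excess (2.72) than that of any member, and its part in the values of that array was not tested. Summed adipocyte markers were 3934 to 10156 on 3 kidney arrays against 102 to 292 on the other kidney arrays. The adrenal transcript Cyp11b1 was 391 on kidney day 0 replicate 2 and 893 on kidney day 3 replicate 2, against 15.1 on kidney day 0 replicate 1. The liver transcript Alb was 12040 on kidney day 1 replicate 2, against 64.3 to 82.3 on the other kidney arrays.

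On the day 0 replicate 1 arrays the interferon-stimulated genes were higher than on the other day 0 arrays of the same tissue, most in heart and least in brain. The median member stood 0.99 higher on the log2 scale in heart, 0.77 in kidney and 0.30 in brain, where the median over all tested genes was 0.03, 0.01 and 0.03. All 34 members were higher in heart, 32 of 34 in kidney and 23 of 33 in brain. The top 1% of genes by this difference held 30 members in heart, 23 in kidney and 0 in brain. In brain the largest differences were those of Kap (5.62), Alb (5.53) and Gh (5.31). These are single arrays, so the values are descriptions with no test.

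Ifit1, which binds viral RNA that lacks the host's cap methylation, had the largest excess in heart and kidney. In heart its intensity was 1466, 254 and 261 on day 0 replicates 1, 2 and 3, then 399, 403 and 526 at day 1, 213, 229 and 234 at day 3, and 278, 342 and 424 at day 7. In kidney it was 561 and 120 at day 0, 151 and 131 at day 1, 82.9 and 77.8 at day 3, and 159 and 138 at day 7. In brain it was 180 and 70.9 at day 0, 49 and 53.4 at day 3, and 57.9 and 59.9 at day 7. Day 0 replicate 1 was the highest array in each of these tissues, with log2 excesses of 2.44, 2.08 and 1.17 over the other day 0 arrays.

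Rtp4, a protein induced by interferon that also helps receptors reach the cell surface, was also highest on these arrays. It gave 2305, 608 and 553 in heart at day 0, 1193 and 357 in kidney, and 323 and 131 in brain, excesses of 1.96, 1.70 and 1.21. Ifit3, a partner of Ifit1 in RNA binding, gave 802, 153 and 155 in heart, 545 and 195 in kidney, and 210 and 107 in brain. Usp18, the protease that removes ISG15 from proteins and damps interferon receptor signalling, gave 277, 72.3 and 69.2 in heart and 220 and 67.1 in kidney, with all other arrays of these tissues at or under 121. For these 3 genes the first replicate did not overlap any other array of its tissue.

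**Figure D1:**
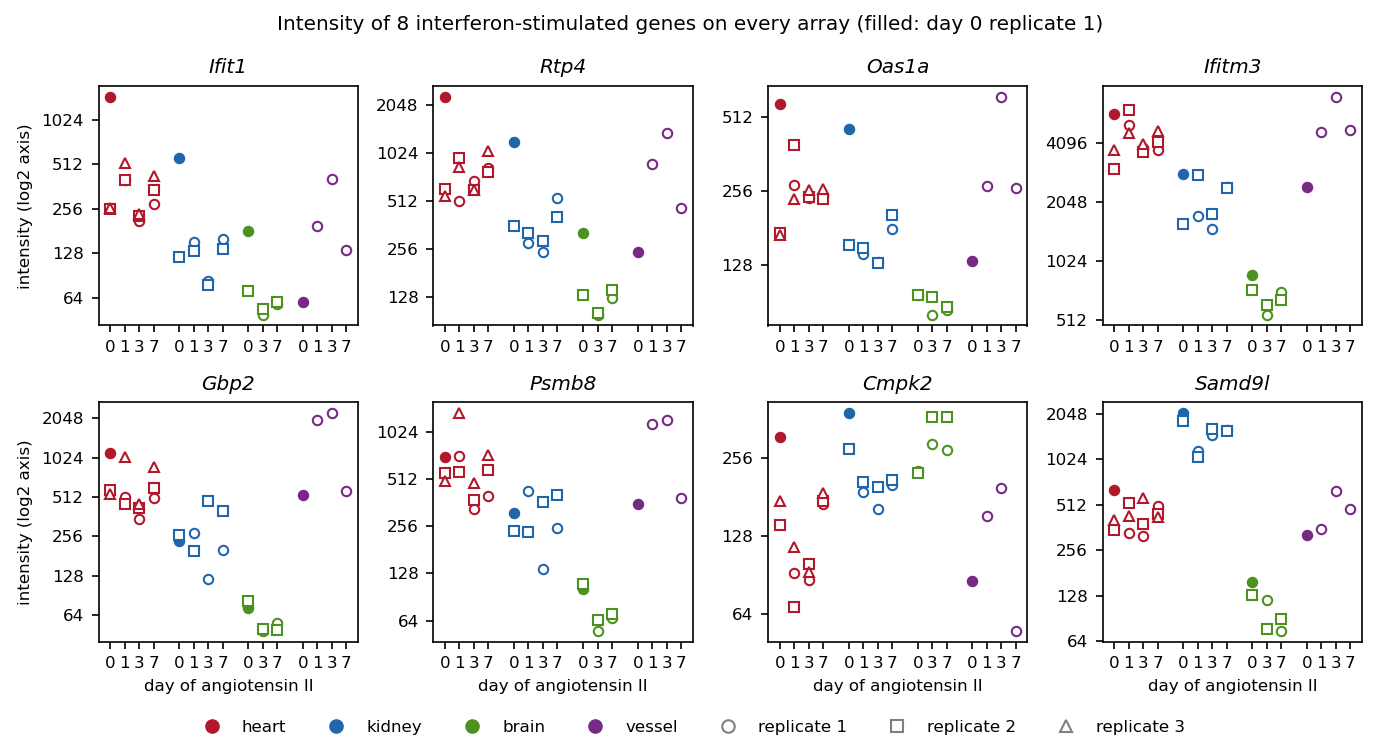
Intensity (log2 axis) of 8 interferon-stimulated genes on every array by tissue and day, with day 0 replicate 1 filled. The filled points of Ifit1 and Rtp4 lie above all other arrays in heart, kidney and brain, and the vessel arrays peak at day 3.

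More than 2-fold above the other day 0 arrays were 17 of 34 members in heart (0.214% of all tested genes), 13 of 34 in kidney (0.134%) and 2 of 33 in brain (2.62%). Seen from all genes, the members made up 17 of 30 genes past that fold in heart (56.7%), 13 of 19 in kidney (68.4%) and 2 of 370 in brain (0.541%). The 2 genes past it in all 3 tissues were Ifit1 and Rtp4, and 11 of 34 were past it in both heart and kidney. The excess was largest in heart for 26 of 33 members, in kidney for 7 and in brain for 0. Shares over all genes were not computed for the overlaps between tissues or for this order. Day 0 replicate 1 was the highest array of the whole tissue for 27 of 34 members in heart (11.8% of all tested genes), 26 of 34 in kidney (14%) and 20 of 33 in brain (36.7%).

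The members did not share this excess evenly. Oasl2 (1.76 and 1.36), Oas1a (1.65 and 1.47), Xaf1 (1.54 and 1.44), Bst2 (1.34 and 1.45), Irf7 (1.24 and 1.31) and Gbp3 (1.32 and 1.11) were high in both heart and kidney. Oas1a belongs to the synthetases whose product activates RNase L, Oasl2 is a relative of them, Xaf1 promotes cell death, and Bst2 tethers budding virions to the cell. Irf7 is the transcription factor that amplifies type I interferon production. At the low end, Uba7, the activating enzyme of ISG15, differed by 0.22 in both tissues, and Dhx58, a regulator of RNA sensing, by 0.34 and 0.28. The immunoproteasome subunits Psmb8 (0.42 and 0.36) and Psmb9 (0.55 and 0.21) and the peptide transporter Tap1 (0.55 and 0.43) were also near the low end. Gbp2 was higher in heart (0.96) but not in kidney (-0.14) or brain (-0.15).

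Other members varied in the same comparison. Ifi27l2a stood 1.54 higher in heart and 1.61 in kidney. Rsad2 (0.69 and 0.04) and Samd9l (0.75 and 0.17) were higher in heart with small differences in kidney. Eif2ak2, the kinase PKR that stops translation, was 2.83-fold higher in heart and stood 0.58 higher on the log2 scale in kidney. Ifit2, another RNA-binding member of the Ifit family, had log2 excesses of 1.41 and 0.58. The transcription factors Irf9 (1.13 and 0.67) and Stat2 (0.67 and 0.34), the sensors Zbp1 (1.25 and 0.85) and Ifih1 (0.96 and 0.78), and Trim30a (1.25 and 0.73), Parp14 (1.01 and 0.83), Ifi35 (0.70 and 0.76) and Ly6e (0.83 and 0.51) were higher in heart than, or close to, their kidney values. Lgals3bp, a secreted glycoprotein that binds galectins, had the larger excess in kidney (0.97 and 1.57), as did Oasl1 (0.51 and 1.02), which in mouse limits the translation of Irf7. Mx2, a relative of Mx1, differed by 0.46 and -0.07. The probe sets of Gbp2, Ifi35 and Ly6e are of types that can also bind related transcripts. A second Gbp2 probe set gave 1.01 in heart, 0.21 in kidney and 0.01 in brain.

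Across members the excess in heart and kidney had a Pearson r of 0.79 (Spearman 0.77, n = 34 genes), against 0.22 over all genes. For heart and brain r was 0.70 (n = 33) and for kidney and brain 0.65. The points are genes read from the same few arrays and are not independent replicates. Members whose promoter held the response element core had a median excess of 1.28 in heart (n = 12), 0.80 in kidney and 0.39 in brain. Those whose promoter held no match had 0.83 (n = 14), 0.63 and 0.09. The ranges overlapped, at 0.67 to 2.44 and 0.22 to 1.76 in heart and at -0.14 to 2.08 and 0.17 to 1.57 in kidney. Rtp4, Usp18 and Ifi27l2a, with large excesses in both tissues, had no promoter searched. A link between the element and the excess was not tested.

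**Figure D2:**
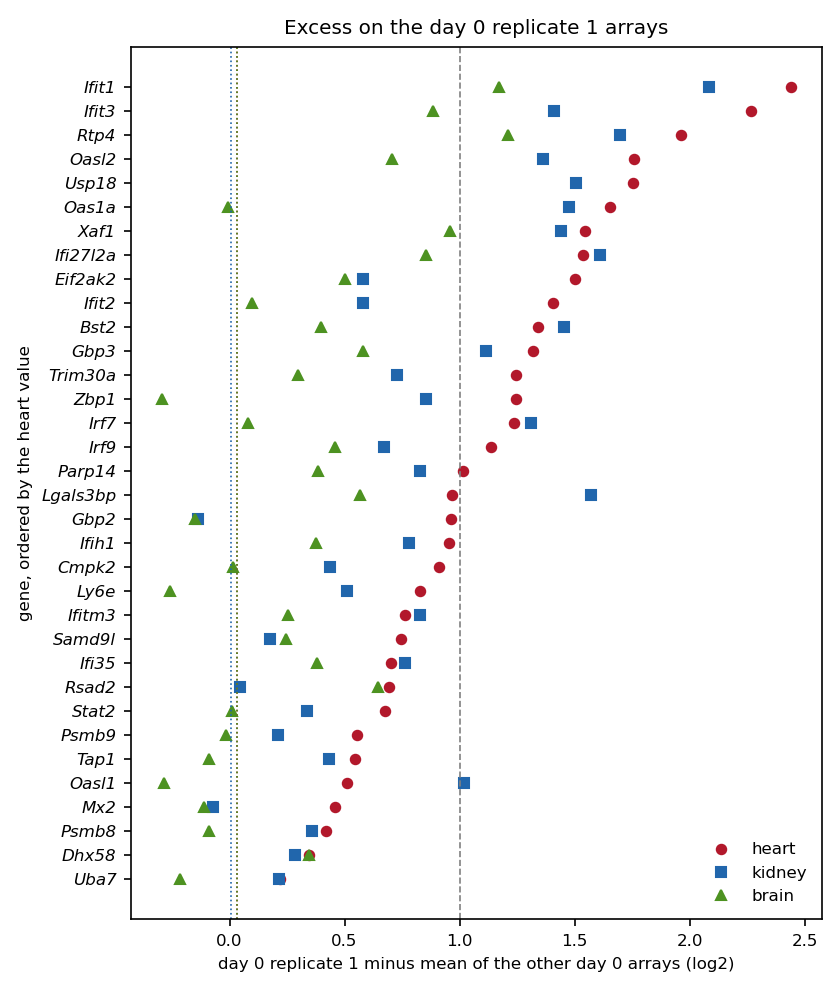
Day 0 replicate 1 minus the mean of the other day 0 arrays for each member, in log2(intensity + 16), in heart, kidney and brain, with dotted lines at the median of all genes and a dashed line at a doubling. Ifit1, Ifit3, Rtp4, Usp18 and Oasl2 lead in heart, and brain values are the smallest for most members.

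Among the genes upstream of these targets, the members Irf7, Irf9, Stat2 and Ifih1 were higher on these arrays of heart and kidney, as given above. In brain their excesses were 0.08, 0.46, 0.01 and 0.38. The separate list of interferon ligands, receptors and signalling proteins had medians of 0.04 in heart, -0.03 in kidney and -0.05 in brain, with 0 genes past 2-fold, where the shares over all genes were those given above. Other interferon-stimulated genes outside the 37 had medians of 0.46, 0.32 and 0.12. The interferon gamma and MHC class I list, which also holds the member Gbp3, had 0.29, 0.28 and 0.14. Leukocyte markers on the heart array had list medians of -0.30 for T and NK cells, -0.06 for macrophages, -0.23 for monocytes and -0.76 for neutrophils, although the summed monocyte markers were highest on it (312 against 188 and 278). In kidney the macrophage list stood at -0.32, the T and NK list at -0.26 and the adrenal cortex list at -3.52. In brain the macrophage list stood at -0.98, the monocyte list at -1.27 and the neutrophil list at -3.20. In these tissues replicate 2 was the only other day 0 array, so it carried more of these transcripts than replicate 1. On the brain array the kidney marker list stood at 1.85. The part of these transcripts in the excess was not tested.

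**Figure D3:**
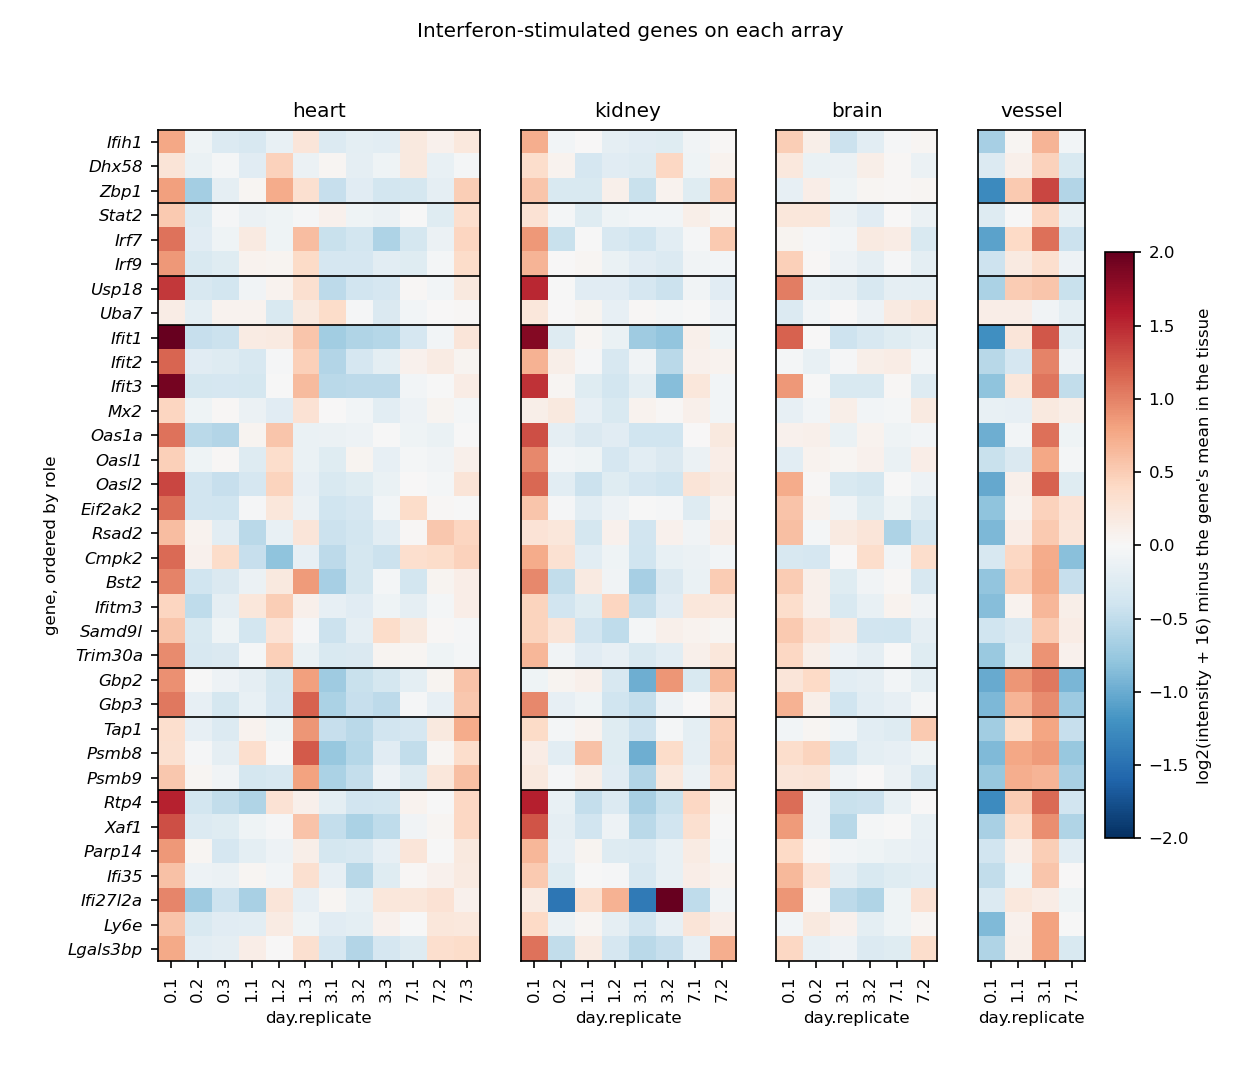
Each of 34 interferon-stimulated genes (rows, ordered by role) on each of the 30 arrays (columns), as log2(intensity + 16) minus the gene's mean in that tissue, on a scale from -2 to 2. Day 0 replicate 1 is the warmest column in heart and kidney, and the vessel column of day 3 is the warmest of its 4.

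Levels over all days differed by tissue. Averaged over days 0, 3 and 7, 33 of 34 members were higher in heart than in brain and 1 was lower, with a median difference of 1.43 against 0.08 for all genes (limma, adjusted p under 0.05, a threshold that 45.1% of all genes passed upwards and 39% downwards). Kidney was above brain for 31 members and below for 0, with a median of 1.00 (42.2% and 35.7%). Heart was above kidney for 17 and below for 3, with a median of 0.41 (37.6% and 34.4%). The day 0 replicate 1 arrays enter these means. Without them the counts were 33 and 1 (44% and 37.7%), 31 and 1 (39.2% and 34.4%), and 22 and 4 (35.9% and 33.4%).

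Most members had their lowest level in brain. Ifi27l2a, a small mitochondrial protein strongly induced by interferon, differed most between heart and brain (4.03 ± 0.40, SE), followed by Gbp2 (2.97), a GTPase that attacks the membranes around intracellular pathogens, and Rsad2 (2.91), the enzyme viperin, which makes a chain-terminating nucleotide. The intensity of Ifi27l2a in brain was 251 and 132 at day 0, 85 and 80.1 at day 3, and 121 and 162 at day 7, and in heart it lay between 1375 and 4459. Cmpk2, a mitochondrial nucleotide kinase, was the 1 member that was lower in heart than in brain (-0.87). Brain gave 227 and 225 for it at day 0, 289 and 369 at day 3, and 275 and 369 at day 7. Over the 35 measured members, the tissue with the highest median intensity was vessel for 20, heart for 10, kidney for 4 and brain for Cmpk2 alone. Brain had the lowest for 34. The part of adipose and heart muscle transcripts in the vessel levels was not tested.

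Samd9l, a restriction factor that acts on translation, was the member most tilted to kidney. It gave 2067 and 1830 in kidney at day 0, 1165 and 1064 at day 1, 1488 and 1632 at day 3, and 1605 and 1565 at day 7. All these lay above the highest heart array, at 645, and the highest brain array, at 157. The heart minus kidney difference was -1.90 ± 0.14, and Cmpk2 (-0.57) and Lgals3bp (-0.52) were also lower in heart. Ifi27l2a (1.22), Xaf1 (1.20), Gbp2 (1.09) and Ifit1 (1.08) were among those higher in heart than in kidney.

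In heart, with all arrays, 0 members rose and 1 fell from day 0 to day 1 (4.86% of all tested genes rose and 8.57% fell). The gene was Cmpk2. Its intensity was 309, 141 and 174 at day 0, 92.1, 68.4 and 116 at day 1, 87, 100 and 93.4 at day 3, and 170, 175 and 188 at day 7. Every day 1 array lay below every day 0 array, whether or not replicate 1 is counted. It fell by 1.00 ± 0.22 (SE, adjusted p = 0.0123, limma), and the change was -0.70 ± 0.16 without day 0 replicate 1 (adjusted p = 0.0404). The call did not hold without day 1 replicate 1 (adjusted p = 0.0554) or day 1 replicate 2 (0.0575). Cmpk2 rose from day 1 to day 7 by 0.86 ± 0.22 (adjusted p = 0.0422, 2.8% of all genes rose). That call was lost when day 0 replicate 3, day 1 replicate 1 or 2, day 3 replicate 2 or any day 7 array was left out (7 of 12 arrays, adjusted p up to 0.18), and under 5 of 9 other settings, the replicate block among them. A second Cmpk2 probe set did not share the excess of day 0 replicate 1 (-0.08), and the mean of the gene's probe sets fell at day 1 by 0.50 (adjusted p = 0.018). Rsad2, whose start lies 12763 bases from that of Cmpk2 on chromosome 12, gave 2052, 1393 and 1144 at day 0 and 906, 1200 and 1571 at day 1, groups that overlapped.

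Over all members at day 1, 24 of 34 were below day 0, with a median difference of -0.09 (all genes -0.02). Without day 0 replicate 1, 32 of 34 were above day 0, with a median of 0.36, and 3 rose while Cmpk2 alone fell (1.55% of all genes rose and 2.54% fell). Of the members, 16 had every day 1 array above both remaining day 0 arrays (15.3% of all genes).

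The 3 that rose without replicate 1 were Ifit1, Oas1a and Ifitm3. That array was left out because it was high for these same genes. Its removal lowers the day 0 mean and narrows the spread, so a rise was favoured in advance. The 3 calls therefore do not test a rise. Ifit1 differed by -0.08 with all arrays (adjusted p = 0.948) and by 0.74 ± 0.16 without replicate 1 (adjusted p = 0.0356), from 254 and 261 to 399, 403 and 526. Oas1a gave 574, 174 and 169 at day 0, 272, 392 and 237 at day 1, 239, 242 and 259 at day 3, and 245, 237 and 260 at day 7. Replicate 1 alone of the day 0 arrays lay above the later ones. The Oas1a difference was 0.17 with all arrays (adjusted p = 0.804) and 0.72 ± 0.16 without replicate 1 (adjusted p = 0.036).

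Ifitm3, a membrane protein that blocks the entry of enveloped viruses, was the brightest member. It gave 5744, 3009 and 3785 at day 0, 5025, 6027 and 4589 at day 1, 3836, 3671 and 4039 at day 3, and 3779, 4149 and 4689 at day 7. The Ifitm3 difference at day 1 was 0.36 with all arrays (adjusted p = 0.233) and 0.62 ± 0.14 without replicate 1 (adjusted p = 0.0418). Zbp1, a sensor of left-handed nucleic acid, gave 181, 53.7 and 82.7 at day 0 and 98.2, 171 and 123 at day 1. All its day 1 arrays were above both remaining day 0 arrays, but the difference of 0.79 missed the threshold (adjusted p = 0.0953), as did those of Bst2 (0.65, adjusted p = 0.16) and Usp18 (0.45, adjusted p = 0.0712).

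Markers of blood-derived cells were higher at the same day. Summed monocyte markers went from 312, 188 and 278 on the day 0 arrays to 3137, 5340 and 1078 at day 1, and summed T and NK cell markers from 261, 359 and 330 to 895, 490 and 601. Of the markers tested, 3 of 3 for monocytes rose (Ccr2 by 2.18, Chil3 by 5.08 and Plac8 by 1.81), 2 of 7 for T and NK cells (Gzmb by 1.72 and Klrd1 by 1.31), 2 of 6 for macrophages (Cd68 by 1.16 and Mrc1 by 0.72) and 2 of 4 for neutrophils, against 4.86% of all genes. Their part in the interferon-stimulated genes was not tested.

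**Figure D4:**
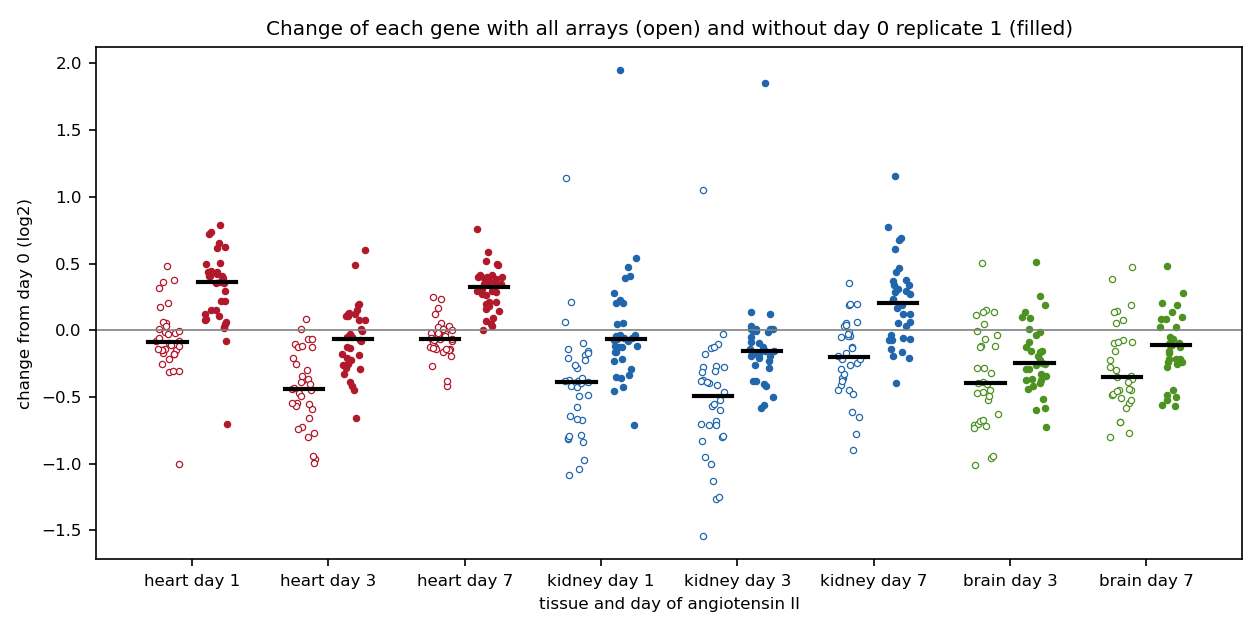
Change of each interferon-stimulated gene from day 0 in log2(intensity + 16) for the 8 comparisons of heart, kidney and brain, with all arrays (open) and without day 0 replicate 1 (filled), bars marking medians. Leaving out that array moves the heart day 1 median from -0.09 to 0.36 and the kidney day 7 median from -0.20 to 0.21.

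At day 3 in heart 0 members were called in either direction (0.0712% of all genes rose, 0.0142% fell), 32 of 34 were below day 0, and the median was -0.44. All day 3 arrays were below all day 0 arrays for 13 members (10.4% of all genes). Without day 0 replicate 1 the median was -0.06, with 21 of 34 below and 0 called (0.0214% and 0.00712%). At day 7 again 0 were called (0.0427% and 0.00712%), with a median of -0.06. Without replicate 1 all 34 were above day 0, with a median of 0.33 and 0 called (0.0356% and 0.00712%). Of the members 9 had an unadjusted p under 0.05 (738 of 14040 genes). The smallest of these was that of Ifi27l2a (0.76, adjusted p = 0.812).

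Days 1, 3 and 7 can be compared without any day 0 array. Day 3 was the lowest of them in heart. From day 1 to day 3, 30 of 34 members were lower, with a median of -0.35 and 0 called (2.83% of all genes rose, 1.47% fell), and 13 had every day 3 array below every day 1 array (7.13% of all genes). From day 3 to day 7, 33 of 34 were higher, with a median of 0.41, and 18 had every day 7 array above every day 3 array (6.46% of all genes). With limma 0 members and 0 of all genes were called for day 7 against day 3. Unadjusted p was under 0.05 for 5 members (983 of 14040 genes). Ifit1 differed by -0.92 ± 0.47 from day 1 to day 3 (adjusted p = 0.309). Leaving out day 0 replicate 1, which enters this contrast through the shared spread alone, gave the same change with an SE of 0.15 (adjusted p = 0.0204). Usp18 then also fell (-0.52 ± 0.12, adjusted p = 0.0385). The array was chosen for its high values of these genes, so the smaller spread was favoured in advance.

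In kidney, with all arrays, 1 member fell at day 1 and 0 rose (0.239% of all genes fell and 0.26% rose). It was Samd9l, whose day 1 arrays, at 1165 and 1064, lay below the day 0 arrays, at 2067 and 1830, and below all arrays of days 3 and 7. The change was -0.80 ± 0.098 (adjusted p = 0.0337). Day 1 replicate 2 also carried Alb, whose part in this change was not tested. The call was lost when day 0 replicate 1 or 2, day 1 replicate 2 or either day 7 array was left out (5 of 8 arrays, adjusted p up to 0.191), and under 5 of 9 other settings, the replicate block among them. Of the 34 members, 31 were below day 0, with a median of -0.39, and 15 had both day 1 arrays below both day 0 arrays (22.7% of all genes).

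At day 3 in kidney 33 of 34 members were below day 0, with a median of -0.49, and 18 had both arrays below both day 0 arrays (16.3% of all genes). Limma called 0 members (0% of all genes in either direction), and 13 members had an unadjusted p under 0.05 (1202 of 14214 genes). Ifit1 had the largest difference (-1.54, adjusted p = 0.566). At day 7 the median was -0.20. The 3 medians without day 0 replicate 1 were -0.07, -0.15 and 0.21, with 0 calls among members or all genes.

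The later kidney days can be compared with each other in the same way. From day 3 to day 7, 29 of 34 members were higher, with a median of 0.34, and 22 had both day 7 arrays above both day 3 arrays (16.9% of all genes). From day 1 to day 7, 31 were higher, with a median of 0.24, and 14 had both arrays above (23.4% of all genes). No member was called in either comparison (0% of all genes for day 7 against day 3, and 0.00704% higher and 0.0352% lower for day 7 against day 1).

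Ifi27l2a varied widely among the kidney arrays. It gave 1272 and 407 at day 0, 1415 and 1843 at day 1, 414 and 5409 at day 3, and 791 and 1082 at day 7. The day 1 arrays and day 3 replicate 2 were the highest, and these were the 3 arrays on which summed adipocyte markers were 3934, 4700 and 10156. On the vessel arrays, where those markers summed to 22156 to 36668, Ifi27l2a was 8799, 12327, 11862 and 10090. Kidney day 1 replicate 2 also carried Alb, and day 3 replicate 2 also carried Cyp11b1. The part of adipose or other tissue in the level of Ifi27l2a was not tested.

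In brain 27 of 33 members were below day 0 at day 3 and 26 at day 7, with medians of -0.40 and -0.35, and 0 were called at either day (0% of all genes). All arrays were below day 0 for 21 members at day 3 (21.4% of all genes) and for 18 at day 7 (24%). Unadjusted p values were under 0.05 for 12 and 8 members (1041 and 1006 of 14109 genes). The smallest was that of Psmb8, an immunoproteasome subunit, which gave 101 and 109 at day 0, 55.2 and 64.5 at day 3, and 66.1 and 70.6 at day 7. Both day 0 arrays lay above all later ones, and the difference at day 3 was -0.68 (adjusted p = 0.662). Gbp2 had the same order, with 72.6 and 82.3 at day 0, 48.5 and 49.7 at day 3, and 55.8 and 49.5 at day 7. Without day 0 replicate 1 the medians were -0.25 and -0.11. Brain day 7 replicate 2 also carried Kap, and the part of kidney transcripts in the day 7 values was not tested.

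The response was also compared between heart and kidney in 1 fit of 26 arrays. No member differed at day 1, 3 or 7 with limma. Of all genes, 0.958%, 0.034% and 0.0136% had a more positive change in heart than in kidney. A more negative change in heart was called for 2.51%, 0.0204% and 0.0136%, which includes genes that fell more in heart. Unadjusted p was under 0.05 for 0 members, against 2715, 1261 and 682 of 14715 genes. The median differences, heart minus kidney, were 0.40, 0.12 and 0.17. The smallest p at day 1 was that of Samd9l (0.70, adjusted p = 0.273), followed by Oas1a (0.98, adjusted p = 0.351). Without day 0 replicate 1 again 0 members were called (0.156% and 0.401% of all genes at day 1, 0% at days 3 and 7). Unadjusted p was under 0.05 for 6, 1 and 2 members (2101, 888 and 593 of 14715 genes), and the medians were 0.38, 0.10 and 0.08. The smallest p was then that of Usp18 at day 1 (0.66 ± 0.19, adjusted p = 0.103).

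Guanylate binding proteins and antigen processing genes varied among replicates of a day. Psmb8 in heart gave 713, 559 and 501 at day 0, 720, 567 and 1355 at day 1, 332, 376 and 484 at day 3, and 399, 587 and 729 at day 7. Gbp2 gave 1108, 579 and 542, then 515, 454 and 1037, then 350, 421 and 455, then 505, 606 and 868. The third replicate was the highest at days 1, 3 and 7 for both genes. Relative to the mean of the heart arrays other than day 0 replicate 1, the median of the guanylate binding proteins on day 1 replicate 3 was 1.09 and that of antigen processing 0.91, while the antiviral effectors stood at 0.08. Some effectors were also the highest of day 1 on it, such as Bst2 (664 against 333 and 415) and Ifit3 (319 against 154 and 200). On that array Cxcl9, a chemokine known for its response to interferon gamma, was 205 against 120 and 108 on the other day 1 arrays. The gamma-induced GTPase Igtp was 1079 there against 621 and 266. Cxcl10 was not raised there (92.9 against 91.1 and 182), and Ifng, the gene of interferon gamma, was dim (12.2 against 15.8 and 9.4). Cxcl9 was also 209 on heart day 0 replicate 1. The part of interferon gamma was not tested.

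Kidney replicates also differed for these genes. Gbp2 gave 237 and 261 at day 0, 272 and 197 at day 1, 120 and 478 at day 3, and 202 and 401 at day 7, and Psmb8 gave 313 and 241, 433 and 237, 136 and 367, and 248 and 405. The day 3 replicates were the lowest and the highest kidney arrays for Gbp2. Psmb9 and Tap1, whose starts lie 226 bases apart, belong to the same role group as Psmb8, and on day 3 replicate 1 the median of that group was -0.56 and that of the guanylate binding proteins -0.66. On day 3 replicate 2 they were 0.24 and 0.46.

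**Figure D5:**
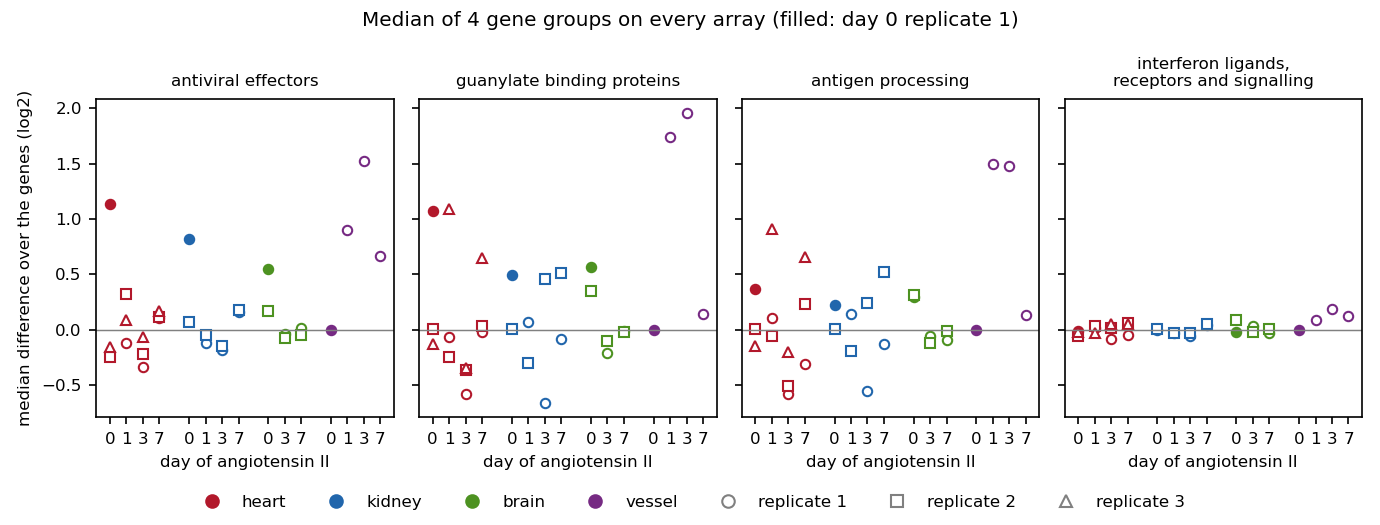
Median of the antiviral effectors, the guanylate binding proteins, the antigen processing genes and the interferon ligands, receptors and signalling genes on every array, in log2(intensity + 16) relative to the mean of the tissue's arrays other than day 0 replicate 1 (vessel relative to its day 0 array). Guanylate binding proteins and antigen processing reach 1.09 and 0.91 on heart day 1 replicate 3, and the signalling genes lie between -0.085 and 0.18 on the 30 arrays.

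In heart, the brightest sensor, transcription factor and gene of the ISG15 system gave the following values. Ifih1, the sensor MDA5 for long double-stranded RNA, gave 504, 271 and 234 in heart at day 0, 228, 257 and 344 at day 1, 235, 248 and 246 at day 3, and 332, 307 and 336 at day 7. Its later arrays overlapped day 0 replicates 2 and 3 at days 1 and 3 and lay above them at day 7. Irf9, the DNA-binding subunit of the complex that type I interferons activate, gave 370, 157 and 163, then 206, 204 and 260, then 151, 152 and 167, then 162, 190 and 257. Its day 1 arrays were above day 0 replicates 2 and 3 and below replicate 1. Uba7 gave 218, 168 and 204, then 204, 153 and 225, then 255, 190 and 156, then 186, 194 and 197, and its groups overlapped at every day.

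In vessel, with 1 array a day and no replicate check, the interferon-stimulated genes were higher at day 1, highest at day 3 and nearer to day 0 at day 7. The median difference from day 0 was 0.92, 1.46 and 0.32. At day 1, 32 of 34 members were higher and 14 by more than 2-fold (0.651% of all genes), at day 3, 33 were higher and 26 by more than 2-fold (4.78%), and at day 7, 31 were higher and 2 by more than 2-fold (4.13%).

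Ifit1 gave 60, 195, 409 and 134 at days 0, 1, 3 and 7. Zbp1 had the largest difference at day 3, with 43.5, 192, 347 and 80.3, which is 1.80, 2.61 and 0.69 on the log2 scale. Irf7 gave 60.1, 194, 324 and 102. Rtp4 (1.77, 2.40 and 0.88), Oasl2 (1.13, 2.20 and 0.79) and Oas1a (0.92, 2.08 and 0.89) had the same course. Gbp2 was already high at day 1, with 527, 2009, 2256 and 566, as was Psmb8, with 355, 1153, 1222 and 390, and both were near their day 0 level at day 7. Eif2ak2 (0.88, 1.28 and 1.09), and Rsad2 (1.03, 1.42 and 1.14) kept most of their difference at day 7. Cmpk2 went from 86.1 to 153, 197 and 55.4, and Uba7 went from 170 to 169, 145 and 132.

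Cell markers moved on the same vessel arrays. List medians at days 1, 3 and 7 were 0.54, 1.67 and 1.08 for macrophages, 1.47, 2.70 and 2.68 for monocytes, and 0.40, 0.75 and -0.18 for T and NK cells. Heart markers stood at -0.82, -2.88 and -0.04, smooth muscle markers at -0.51, -0.51 and -0.47, and brain markers at 2.12 on the day 3 array. Their part in the vessel values was not tested. Ligands, receptors and signalling genes had medians of 0.09, 0.18 and 0.12, and the interferon gamma and MHC class I list 0.83, 0.98 and 0.15.

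Other genes of the pathway were counted from lists of their own. The interferon gamma and MHC class I list shares Gbp3 with the members, because its entry Gbp4 was matched to Gbp3 as a synonym. Of 29 interferon ligands, receptors and signalling genes, 2 rose and 2 fell in heart at day 1, where 4.86% of all genes rose and 8.57% fell, and 0 were called at days 3 and 7. Myd88, the adaptor of Toll-like receptors (0.74, adjusted p = 0.0148), and Sting1, the adaptor of DNA sensing (0.58, adjusted p = 0.037), rose. Mavs, the adaptor of RNA sensing (-0.60, adjusted p = 0.0358), and Ifngr2, a chain of the interferon gamma receptor (-0.48, adjusted p = 0.0285), fell. Of 42 other interferon-stimulated genes, Cxcl10, a chemokine that draws T cells (1.00, adjusted p = 0.0105), and Ifitm1 (1.55, adjusted p = 0.0103) rose and Pnpt1 (-0.37, adjusted p = 0.0457) fell. The shares of both lists that rose were near that of all genes. Of 20 interferon gamma and MHC class I genes 0 were called, the smallest p values being those of Gbp6 (-1.33, adjusted p = 0.136) and Ciita (0.27, adjusted p = 0.145). In kidney and brain these 3 lists had 0 calls against day 0, and the smallest p values at day 3 were those of Trim21 (-0.31, adjusted p = 0.453) and Irgm1 (-0.90, adjusted p = 0.457) in kidney and H2-K1 (-0.77, adjusted p = 0.662) in brain. Without day 0 replicate 1, 0 signalling genes rose and 1 fell, and 1 of the other interferon-stimulated genes rose (1.55% and 2.54% of all genes).

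The genes most like the members over arrays were found from the Pearson correlation with the members' mean, after each tissue's mean was taken away. Over 26 arrays of heart, kidney and brain the closest genes outside the list were Ifi47 (r = 0.94), an interferon-inducible GTPase, Phf11d (0.90), Parp9 (0.89), Parp12 (0.84), Gbp7 (0.84), Nmi (0.81), Dtx3l (0.80) and Trim34a (0.80). Trim30d (0.79), Ogfr (0.79), Trim21 (0.77), Slfn8 (0.77), Sp100 (0.75), Irgm2 (0.73) and Mndal (0.73) followed. Over the 23 arrays without day 0 replicate 1, Ifi47 again had the highest value (0.89), and Phf11d (0.79), Parp9 (0.73), Parp12 (0.72), Gbp7 (0.82), Nmi (0.70) and Irgm2 (0.73) were again among the closest 15. The others there were Irf1 (0.83), Cd274 (0.79), H2-M3 (0.77), Tapbp (0.77), Igtp (0.74), Fcgr4 (0.72), Ing5 (0.70) and Psmb10 (0.68). Irf1, a transcription factor known for its response to interferon gamma, had 0.42 over 26 arrays, and Trim34a had 0.32 over 23.

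Each member was likewise set against the mean of the other members. The median member had r of 0.78 over 26 arrays and 0.68 over 23, where the median of 12991 genes was 0.03 and -0.01. Over 26 arrays Xaf1, Ifit1 and Irf9 were the closest (0.94, 0.93 and 0.93), and over 23 arrays Gbp3 (0.84), Xaf1 (0.83) and Tap1 (0.82) were. Uba7 was the least like the others, with 0.13 and -0.06. These are descriptions over arrays that share tissues and days.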

How the data were processed

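The data are the deposited values of 30 Affymetrix Mouse Genome 430 2.0 arrays, linear intensities for 45101 probe sets that, per the submitters' processing notes, the authors made with Affymetrix Expression Console. Which summary algorithm and version were run is not given in the sources used here. Of the probe sets, 34945 had 1 gene symbol in the platform annotation, 932 several and 9160 none, and 64 were controls. Each of 18193 genes was read from the probe set with the highest mean.

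From these intensities log2(intensity + 16) was computed. Genes entered a tissue's test if they exceeded the 40th percentile of an array on a number of arrays no lower than the size of that tissue's smallest group. The tests covered 14040 heart genes, 14214 kidney genes and 14109 brain genes, and 14295 vessel genes passed the same filter. Each tissue was fitted by group means with limma 3.58.1 (R 4.3.3) and empirical Bayes moderation, and every adjusted p given is limma's, adjusted by Benjamini-Hochberg over all genes tested, with a threshold of 0.05. Values after ± are SE. Levels and responses were compared between tissues in 1 fit of 26 arrays. Vessel has 1 array a day and no test. Depth has no meaning for arrays, and their number limits the precision. The fits were tested on simulated data. Promoters were taken from RefSeq, GRCm38.p6.

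Named genes are the members that passed the threshold with or without day 0 replicate 1, the brightest member of each role, up to 4 genes past the threshold or 2 with the smallest p in each other list, and the 15 genes most like the members. Ifit3, Rtp4, Usp18, Zbp1 and other members are named in addition, chosen after their values were seen. The members and lists were chosen with earlier results of these data known. Alternatives were the added value, the filter, the probe set rule, a second normalization, the variance model, the arrays in the fit, the replicate number as a block and leaving out each array.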

Additional observations from a re-analysis of the deposited data

Results flagged for a closer look

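The following 4 genes had arrays that all moved one way from day 0 in one tissue and all the opposite way in another. Within a tissue such separation was common. Of all genes, 15.4% at day 3 and 16.3% at day 7 had all brain arrays above day 0. All arrays were below day 0 for 16.3% and 15.3% in kidney, and for 10.4% in heart at day 3. The share of all genes with both at once was not computed, so the 4 are not shown to exceed it. In none of them was the difference between the tissues tested. The values use all day 0 arrays, and those without day 0 replicate 1 follow.

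Cmpk2 stood 0.50 above day 0 in brain at day 3 and heart at -0.96, a difference between the tissues of 1.47. Against kidney, where the day 3 value was -0.80, the difference was 1.31, and at day 7 brain stood at 0.47 and kidney at -0.61, a difference of 1.09. Ifit2 at day 3 was at 0.14 in brain and -0.71 in kidney, which differ by 0.85.

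Uba7 at day 7 was at 0.38 in brain and -0.17 in kidney, which differ by 0.55. For Mx2 the brain and kidney values were 0.15 and -0.10 at day 3, 0.25 apart, and 0.19 and -0.12 at day 7, 0.31 apart. Brain and kidney have 2 arrays a day, and no group had enough arrays for a test of single outlying arrays.

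With day 0 replicate 1 left out of each tissue, Cmpk2 at day 3 was at 0.51 in brain, -0.66 in heart and -0.58 in kidney, and at day 7 at 0.48 in brain and -0.40 in kidney. Ifit2 at day 3 was at 0.19 in brain and -0.42 in kidney, and Uba7 at day 7 at 0.28 and -0.06. Mx2 was at 0.10 and -0.14 at day 3 and at 0.13 and -0.16 at day 7.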

How the results depend on the processing

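Of the counts of called members under the alternatives, 447 were within 1.5 times the reported count and 30 were not. For heart day 7 against day 1 the count of 1 became 0 without the filter on dim genes, with 64 added in place of 16, with the mean of a gene's probe sets and with a fit of only the groups compared. With only the groups compared the heart day 1 count also became 0. In the fit of 3 tissues the heart day 3 count became 1, with Cmpk2 called. The kidney day 1 count of 1 became 0 without the filter, with 1 added, in the fit of 3 tissues and with only the groups compared. The cause was not tested, beyond the fewer arrays in the last of these fits.

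With single arrays left out, the counts ranged from 0 to 4 for heart day 1 and kidney days 1 and 3 against day 0, from 0 to 1 for heart day 3 against day 0 and heart day 7 against day 1, and from 0 to 2 for heart day 3 against day 1. The kidney counts of 4 came without day 0 replicate 2, which leaves the array already known to be high as the only day 0 array, so they test nothing. The Ifit1 difference at heart day 1 ranged from -0.49 to 0.74, that of Oas1a from -0.11 to 0.72 and that of Ifitm3 from 0.15 to 0.62. Cmpk2 ranged from -1.22 to -0.70 there (adjusted p 0.00271 to 0.0575, limma), and Samd9l in kidney from -0.88 to -0.71 (0.0267 to 0.191). The medians over members ranged from -0.26 to 0.36 at heart day 1, from -0.25 to 0.33 at heart day 7 and from -0.61 to 0.21 at kidney day 7, and they changed sign without day 0 replicate 1. The excess of day 0 replicate 1 had medians of 0.88 to 1.05 in heart, 0.57 to 0.81 in kidney and 0.19 to 0.39 in brain under 5 other settings.

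With the replicate number as a block, the counts for heart day 7 against day 1 and kidney day 1 against day 0 became 0. Same-numbered arrays had correlations of -0.33 to 0.15 in heart, -0.09 to 0.24 in kidney and -0.64 to 0.48 in brain, so the numbers do not show that arrays were paired. Dim genes such as Mx1, and brain levels near the filter, limit what can be seen.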
